A study of Mus musculus with 6 samples.

Results

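The 2 arms of the microRNA precursor mir-31, mmu-miR-31-3p and mmu-miR-31-5p, were followed in tumours grown from Hepa1-6 cells, a mouse hepatoma line, in the right flank of C57BL/6 mice. Both were taken by name from the 1881 mouse miRNAs on the arrays, and both were among the 388 miRNAs bright enough to be compared between groups, being detected on all 6 arrays. The pair was selected on a measured value, the difference of miR-31-3p between the groups, which had the smallest p of all miRNAs on the lower side. Differences between the groups are therefore given as a description, with no test for either arm.

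In the GLE group, 3 tumour-bearing mice were given an agent named only as GLE in the labels, dosed at 0.023 g daily per 10 g mouse. In the model group, 3 tumour-bearing mice received 0.2 ml of saline once a day for 28 days. All 6 mice carried the same Hepa1-6 inoculation, the labels give 28 days as the age of every sample, and every tumour had an array to itself, with Cy3 as the only dye. Tumours are numbered below by the replicate numbers of the labels. The tissue is whole tumour, so fewer cells of a type and less of a miRNA per cell cannot be told apart. miR-122-5p, the defining miRNA of differentiated hepatocytes, was detected on 2 of the 6 arrays. All arrays lay on 1 slide and share 1 scan time. The GLE arrays occupied its first row and the model arrays its second, so slide row and group cannot be told apart.

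A microRNA is cut from a hairpin whose stem yields a duplex. One strand is loaded into Argonaute and guides silencing of mRNAs that pair with its seed, while the other is usually degraded. In mir-31 the 5p arm is generally the guide and the 3p arm, formerly called miR-31*, the less abundant partner. miR-31 is known from epidermis, hair follicle and mammary epithelium, restrains invasion and metastasis in models of human breast cancer and is raised in human colorectal and oral squamous tumours. In human tumours its locus can be lost together with the neighbouring tumour suppressor CDKN2A.

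The sequences below show how the arms sit in the hairpin and which bases each carries as its seed. They are RefSeq sequences on GRCm38.p6, where the hairpin of 106 bases lies on the minus strand, chr4:88910557-88910662. The seed, bases 2 to 8, is in capitals in the mature arms. Both arms are in capitals in the hairpin, 5p at bases 28 to 49 and 3p at bases 64 to 86.
miR-31-3p: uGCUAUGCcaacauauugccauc
miR-31-5p: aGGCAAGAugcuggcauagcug
mir-31 hairpin: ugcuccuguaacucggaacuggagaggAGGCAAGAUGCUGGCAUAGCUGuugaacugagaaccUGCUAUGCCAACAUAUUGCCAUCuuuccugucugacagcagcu

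The seeds of the arms differ from each other. Among the 1608 miRNAs of the array that have a mature sequence in RefSeq, 0 others shared the seed of miR-31-3p and 0 others that of miR-31-5p. In RefSeq the hairpin overlaps the long non-coding RNA gene Gm49890, and its nearest protein-coding neighbours are the interferon gene Ifne and Mtap, an enzyme of methionine salvage. Within 2000000 bases of the miR-31 probes, the arrays also carry miR-491-5p and miR-491-3p, and both were detected on 0 arrays.

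Each arm was read by 2 probes of up to 15 spots per array, complementary to its 3′ part. The probes are shown because they decide which bases of an arm were measured. Probe bases opposite the seed are in capitals, so that each probe reaches only 2 to 4 of the 7 seed bases. The files place them on chromosome 4 of mm9, the miR-31-3p probes at 88556530 to 88556546 and 88556529 to 88556546, and the miR-31-5p probes at 88556494 to 88556509 and 88556495 to 88556509.
A_54_P3474 (miR-31-3p): gatggcaatatgttgGCA
A_54_P3475 (miR-31-3p): gatggcaatatgttgGCAT
A_54_P1322 (miR-31-5p): cagctatgccagcaTCT
A_54_P1323 (miR-31-5p): cagctatgccagcaTC

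Before any scaling between arrays, the processed signal of A_54_P3475 was 95.5, 261 and 65.5 intensity units in GLE tumours 1, 2 and 3, against 232, 163 and 159 units in model tumours 1, 2 and 3. Probe A_54_P1322 of miR-31-5p gave 901, 1747 and 740 units in GLE tumours 1, 2 and 3, against 1547, 1014 and 935 in model tumours 1, 2 and 3. GLE tumour 2 was the brightest array for both probes and GLE tumour 3 the dimmest. Arrays differed in overall brightness: the 75th percentile of the 636 probes detected on every array ran from 203 to 364 units, and 378 to 458 miRNAs were detected per array. All levels below are log2 values relative to that percentile. The arms were read by different probes, so the level of one is not set against that of the other.

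miR-31-3p was lower in 2 of the 3 GLE tumours. Its log2 level was −1.54, −0.91 and −2.29 in GLE tumours 1, 2 and 3, against −0.85, −0.92 and −0.81 in model tumours 1, 2 and 3. GLE tumour 2 lay inside the range of the model tumours, so the groups overlapped, while GLE tumours 1 and 3 lay below every model tumour. It averaged −1.58 ± 0.69 over the GLE tumours, against −0.86 ± 0.057 over the model tumours (SD, n = 3 each). The difference, GLE minus model, was −0.72 ± 0.34 (SE of the limma fit), a 0.605-fold level with a 95% interval of 0.350 to 1.05.

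miR-31-5p, the usual guide arm, was nearly level except in 1 tumour. Its log2 level was 1.68, 1.79 and 1.18 in GLE tumours 1, 2 and 3, against 1.83, 1.68 and 1.71 in model tumours 1, 2 and 3. GLE tumour 3 lay below every model tumour, and the other GLE tumours lay within the model range. It averaged 1.55 ± 0.33 over the GLE tumours, against 1.74 ± 0.082 over the model tumours (SD, n = 3 each). The difference was −0.19 ± 0.21, a 0.878-fold level with a 95% interval of 0.626 to 1.23.

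**Figure D1:**
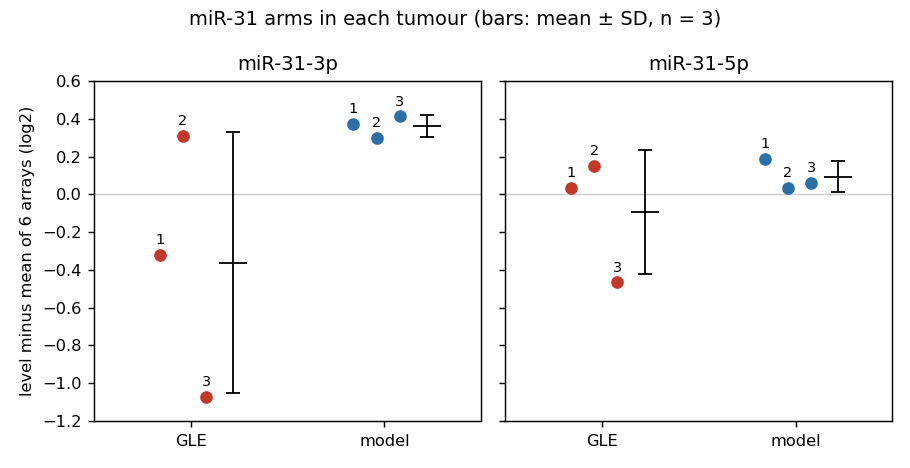
Log2 level of each miR-31 arm minus its mean over the 6 arrays, for GLE tumours (left of each panel) and model tumours (right); points are tumours numbered by replicate, and the black bars give mean ± SD (n = 3). GLE tumour 3 is the lowest tumour for both arms, at −1.07 for miR-31-3p and −0.47 for miR-31-5p, while the model tumours sit close together.

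As background, 0 of the 388 miRNAs passed limma's test at an adjusted p of 0.05 (0% called), and 6, or 1.55%, had an unadjusted p under 0.05. These counts rest on single arrays: leaving out GLE tumour 2 gave 2 adjusted calls and 107 unadjusted ones. Leaving out any other array gave 0 adjusted calls, and the unadjusted count was 0 without GLE tumour 1, GLE tumour 3 or model tumour 2, 1 without model tumour 1 and 5 without model tumour 3. With the replicate number as a block, 17 miRNAs were below that unadjusted p. The groups did not overlap in 26 of the 388 (6.7%), of which 8 were lower in GLE tumours (2.06% of the 388), and neither miR-31 arm was among these. Of the 388 differences 190 (49%) were below 0. From the most negative difference, miR-31-3p ranked 3 and miR-31-5p ranked 70 of 388.

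GLE tumour 3 set much of both values. Without it, the difference was −0.37 ± 0.23 for miR-31-3p, which then ranked 8 from the most negative, and −0.00077 ± 0.17 for miR-31-5p. Without GLE tumour 2, the differences were −1.06 ± 0.24 and −0.31 ± 0.20. Leaving out a model tumour moved the difference of miR-31-3p only between −0.76 and −0.70.

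The spread among tumours lay on the GLE side. miR-31-3p spanned a 2.61-fold range over the GLE tumours and a 1.08-fold range over the model tumours. Ranked by SD from the most variable of the 388 miRNAs, it stood at 55 among GLE tumours and at 369 among model tumours. miR-31-5p spanned 1.53-fold in GLE tumours and 1.11-fold in model tumours, with ranks of 193 and 343. GLE tumours were the more variable in general: the median SD over the 388 miRNAs was 0.33 in GLE tumours and 0.17 in model tumours. Whether the SDs of the groups differ was not tested with 3 tumours each.

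The coefficient of variation over the spots of a miR-31-3p probe was 2.27% to 12.8%, and for a miR-31-5p probe 1.42% to 4.62%. The standard error of a probe's mean was at most 0.048 on the log2 scale. The 2 probes of an arm gave the same difference between groups to within 0.05: −0.75 for A_54_P3474 and −0.70 for A_54_P3475 of miR-31-3p, and −0.19 for both A_54_P1322 and A_54_P1323 of miR-31-5p. Over the 6 arrays the paired probes correlated with r = 0.998 for miR-31-3p and 0.996 for miR-31-5p, a description of technical agreement within arrays.

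**Figure D2:**
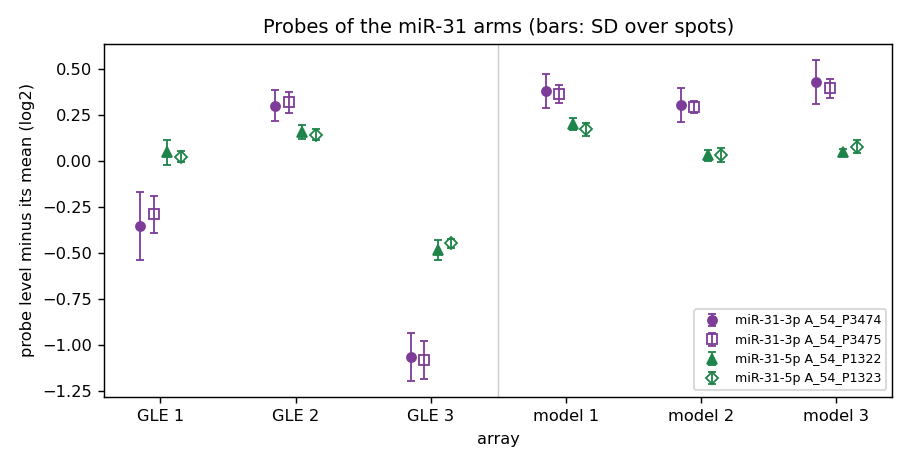
Log2 level of the 4 miR-31 probes on each array minus the probe's mean over the 6 arrays, GLE arrays left and model arrays right; error bars are the SD over the 12 to 15 spots used. The 2 probes of each arm overlap within their bars on every array, and the miR-31-3p probes sit below the miR-31-5p probes in GLE tumours 1 and 3.

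The arms ran together across tumours, with unequal steps. Over the 6 arrays, which share labelling and scaling, their levels had Pearson r = 0.91 and Spearman rho = 0.77, and the deviations from the group means had r = 0.93. The relation rested on GLE tumour 3, since r was 0.47 over the 5 arrays without it. Relative to the mean of the 6 arrays, GLE tumour 3 was at −1.07 for miR-31-3p and at −0.47 for miR-31-5p, and GLE tumour 1 was at −0.32 and 0.035.

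**Figure D3:**
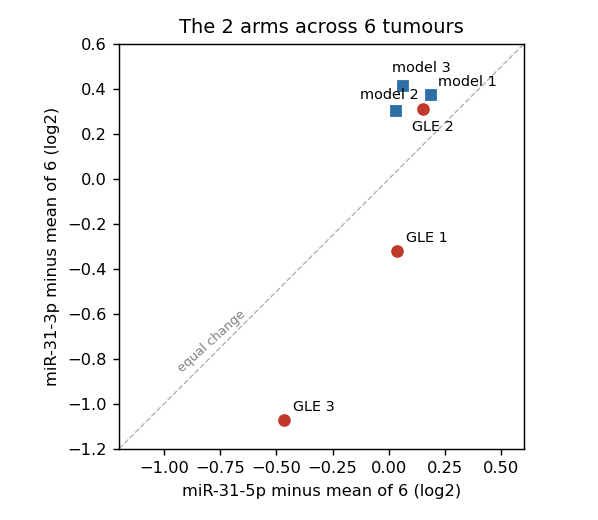
Log2 level of miR-31-3p (vertical) against miR-31-5p (horizontal), each minus its mean over 6 arrays, with circles for GLE and squares for model tumours; the dashed line marks equal change of both arms. GLE tumour 1 lies below the line because its miR-31-3p was low (−0.32) while its miR-31-5p was near the mean (0.035).

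The difference between the arms within an array, 3p minus 5p on the log2 scale, does not depend on a scaling factor of the array. It was −3.22, −2.71 and −3.47 in GLE tumours 1, 2 and 3, against −2.68, −2.60 and −2.51 in model tumours 1, 2 and 3. Its absolute size depends on the probes and has no meaning of its own. All 3 GLE values lay below the 3 model values, although GLE tumour 2 missed the lowest model tumour, model tumour 1, by only 0.029. The largest standard error of a miR-31 probe's mean was 0.022 in GLE tumour 2 and 0.024 in model tumour 1. A standard error of the gap itself was not computed. This quantity averaged −3.13 ± 0.39 over the GLE tumours, against −2.60 ± 0.081 over the model tumours (SD, n = 3 each), a change of −0.54. With each of the 4 pairings of a 3p probe and a 5p probe, the GLE values again lay below the model values, by as little as 0.003. Under quantile normalisation, which reshapes each array's signals, the groups overlapped by 0.043.

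The same quantity was computed for the 29 precursors with both arms detected on all arrays. The change of miR-31, −0.54, was the most negative of the 29, next to −0.52 for miR-1839 and −0.42 for miR-21a. The other end reached 0.44 for miR-149, and the median was −0.0033. The groups did not overlap in 3 of the 29 (10.3%), and lay lower in GLE tumours without overlap in 2 (6.9%), miR-31 and miR-21a. The other precursors are named here after their values were seen. Since miR-31-3p was chosen for its difference, this rank describes the pair and tests nothing. Correlation between arms over the arrays was above 0.9 in 11 of the 29 precursors, and miR-31 ranked 11.

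**Figure D4:**
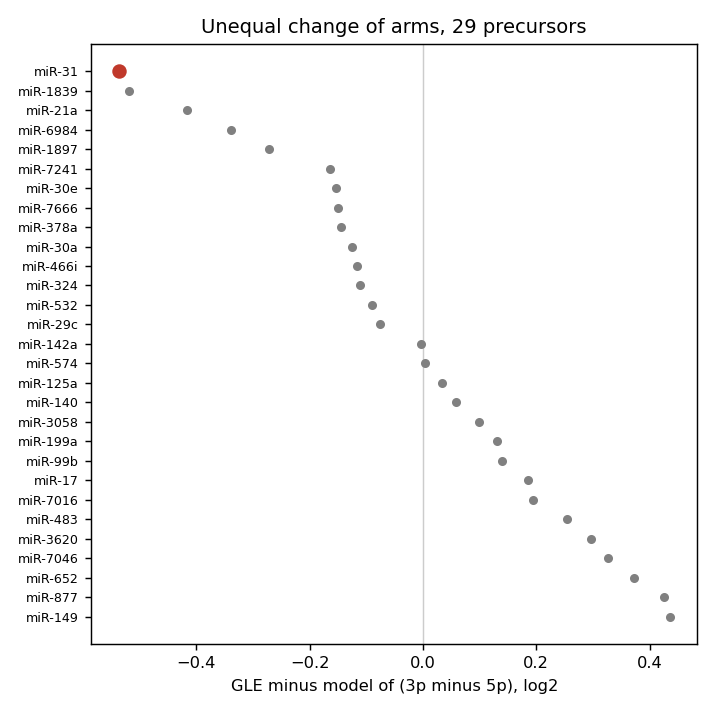
Change of 3p minus 5p between groups, GLE minus model on the log2 scale, for the 29 precursors whose arms were both detected on all 6 arrays; miR-31 is the red point. It stands at −0.54, the most negative value, with miR-149 at 0.44 at the other end.

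Likeness to miR-31-3p over the 6 arrays was ranked by Pearson r among the 348 other miRNAs detected on all arrays. The most alike were miR-431-3p (r = 0.97) and the 3p arms miR-30a-3p (0.96) and miR-30e-3p (0.95). Also among them were miR-17-5p (0.96) and miR-93-5p (0.95) of the proliferation-linked miR-17 family. miR-31-5p itself ranked 20 of the 348. Those least like miR-31-3p were miR-652-3p (−0.96), miR-146b-5p, which dampens inflammatory signalling (−0.95), and miR-22-3p (−0.95). For miR-31-5p the most alike were miR-30e-3p (0.99), let-7e-5p of the growth-restraining let-7 family (0.99), miR-30a-3p (0.99), miR-1949 (0.99) and miR-30a-5p (0.98). Its least alike were miR-3102-5p (−0.97), miR-6980-5p (−0.97) and miR-1934-3p (−0.97). These correlations describe 6 arrays that share a scaling, and miR-30a-3p and miR-30e-3p stand in both upper lists. Of the 348 candidates, 23 had r over 0.9 with miR-31-3p and 32 with miR-31-5p. Over the 5 arrays without GLE tumour 3, the upper lists had r of 0.75 to 0.89 with miR-31-3p and 0.84 to 0.94 with miR-31-5p, and the lower lists −0.93 to −0.84 and −0.97 to −0.73. The lists were picked as extremes on arrays that include these 5, so such values cannot test whether the likeness holds.

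Markers of other cell types also differed among these tumours, and their values are set beside the miR-31 arms. Of the 7 epithelial and skin miRNAs, 3 were tested, all of the miR-200 family that maintains epithelial identity, and 0 of the 3 passed. Their mean, relative to its average over the 6 arrays, was −0.47, 1.20 and −1.73 in GLE tumours 1, 2 and 3, against 0.85, 0.46 and −0.31 in model tumours 1, 2 and 3. It was highest in GLE tumour 2 and lowest in GLE tumour 3, and over the 6 arrays it had r = 0.86 with miR-31-3p and 0.89 with miR-31-5p. Over the 5 arrays without GLE tumour 3 these were 0.55 and 0.76. miR-200b-3p differed by −0.63 ± 0.66, miR-429-3p by −0.78 ± 0.70 and miR-200a-3p by −0.59 ± 0.75. The defining markers miR-200c-3p and miR-141-3p were detected on 0 arrays, miR-205-5p of keratinocytes on 1 and miR-203-3p of skin on 4.

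The immune and fibroblast lists had positive median differences. All 7 immune miRNAs were tested, 7 had a positive difference and 0 passed, with a median of 0.71 against 0.0078 over all 388 miRNAs. The immune mean, relative to its average over the 6 arrays, was 0.49, −0.37 and 1.02 in GLE tumours 1, 2 and 3, against −0.49, −0.62 and −0.022 in model tumours 1, 2 and 3. Of the 6 fibroblast and smooth muscle miRNAs, 5 had a positive difference and 0 passed (median 0.64). The members did not move alike. The miR-199 and miR-214 entries differed by 0.61 to 0.93, miR-143-3p by 0.27 ± 0.21 and miR-145a-5p by −0.026 ± 0.20. The mean of the 6 was 0.28, −0.44 and 0.98 in GLE tumours 1, 2 and 3, against −0.29, −0.51 and −0.015 in model tumours 1, 2 and 3. Over the 6 arrays the immune mean had r = −0.92 with miR-31-3p and −0.83 with miR-31-5p, and the fibroblast mean −0.93 and −0.88. The values with miR-31-5p rested on GLE tumour 3: over the other 5 arrays the immune mean had r = −0.80 with miR-31-3p and −0.45 with miR-31-5p, and the fibroblast mean −0.72 and −0.39. GLE tumour 3, with the lowest miR-31 arms, had the highest immune and fibroblast means.

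The hepatocyte, skeletal muscle and endothelial lists are given in the same way. Of the 6 hepatocyte miRNAs 3 were tested, 2 with a positive difference and 0 past the threshold (median 0.48, r = 0.49 with miR-31-3p). miR-192-5p differed by 0.54 ± 1.00, miR-194-5p by 0.48 ± 0.85 and miR-148a-3p by −0.083 ± 0.30. The median is thus that of miR-194-5p, which was detected on 5 arrays and stood at the floor in model tumour 3. miR-215-5p and miR-802-5p were detected on 0 arrays. Relative to its average over the 6 arrays, the hepatocyte mean was −0.44, 1.80 and −0.89 in GLE tumours 1, 2 and 3. In model tumours 1, 2 and 3 it was 0.47, −0.11 and −0.82, so GLE tumour 2 was the only GLE tumour above 0. The 4 skeletal muscle miRNAs, which flank tissue can contribute, had 3 positive differences and 0 calls (median 0.51, r = −0.17 with miR-31-3p). Of the 2 endothelial miRNAs only miR-126a-3p was tested, at 0.49 ± 0.19 (r = −0.90 with miR-31-3p). Relative to its average, miR-126a-3p was at 0.32, −0.031 and 0.45 in GLE tumours 1, 2 and 3. In model tumours 1, 2 and 3 it was at −0.12, −0.35 and −0.27. Without GLE tumour 3 the correlations with miR-31-3p were 0.25 for the hepatocyte mean, −0.82 for the skeletal muscle mean and −0.87 for miR-126a-3p. The skeletal muscle value with miR-31-3p changed sign without GLE tumour 1 (0.097) or model tumour 1 (0.041). With miR-31-5p, r was 0.59 for the hepatocyte mean, −0.0094 for the skeletal muscle mean and −0.66 for miR-126a-3p. Without GLE tumour 3 the values with miR-31-5p were 0.71, −0.87 and −0.025. Leaving out an array from the correlations with other miRNAs and lists was chosen after seeing the data. The part of any of these cell types in the miR-31 values was not tested.

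**Figure D5:**
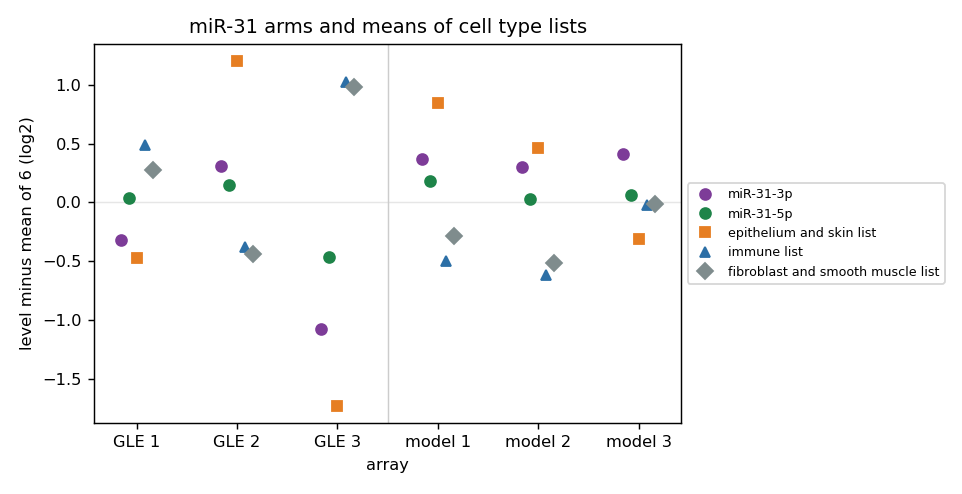
Log2 level minus the mean of 6 arrays for the miR-31 arms and for the mean of the tested miRNAs of 3 cell type lists, GLE arrays left and model arrays right. In GLE tumour 3 both arms and the epithelial list are at their lowest and the immune and fibroblast lists at their highest; in GLE tumour 2 the epithelial list is at its highest, 1.20.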

How the data were processed

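Total RNA of 6 tumours, 3 per group, was extracted with TRIzol and labelled with Cy3, per the labels' protocols. The deposited scanner files come from Agilent Feature Extraction 10.7.1.1, per the file headers and the submitters' processing notes. Per the file headers, they hold a linear intensity for each spot after subtraction of background and a spatial trend, with no normalisation from array to array. The authors also deposited a table of values that behave as log2, whose scale is inferred from the arrays and whose centring and normalisation are not given in the sources used here. The medians of its columns for GLE tumours 1, 2 and 3 were −3.20, −3.32 and −3.27, against −3.32, −3.17 and −3.13 for model tumours 1, 2 and 3. Between 69.2% and 75.8% of each column stood at its lowest value. Each median is therefore that lowest value and does not show how the columns were centred. It served as an alternative only.

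Control spots and outlier spots (1401 to 1883 per array) were left out, and spots were averaged per probe. A probe counted as detected when a share of over 0.5 of its spots was well above background. Arrays were divided by the 75th percentile of the 636 probes that every array detected, floored at −4.26 (log2) and logged. A miRNA's value averages its probes that were detected throughout at least 1 group. The 388 miRNAs were fitted with limma 3.58.1 in R 4.3.3 (lmFit and eBayes, Benjamini-Hochberg), after a trial on simulated data. The other 1493 were not tested. With 6 arrays, their number sets the precision.

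The members, the cell type lists and the rule for named miRNAs were chosen with earlier results of these data known. The rule named the 5 most and 3 least alike miRNAs of each arm, those sharing a seed or lying within 2000000 bases, and list members. The comparison of 29 precursors was added after values were seen. The labels describe each sample as a mouse, so p-values measure the spread between mice. With an array per tumour, this spread includes differences of RNA preparation, labelling and hybridisation, which cannot be told apart from it. The replicate numbers coincide with slide columns. Deviations of same-numbered arrays from their group means correlated with r = −0.62, −0.18 and 0.37, so the numbers were not taken to pair the tumours.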

Additional observations from a re-analysis of the deposited data

How the results depend on the processing

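The difference of miR-31-3p was below 0 under all 13 alternatives that keep every array (−0.87 to −0.095) and with each array left out (−1.06 to −0.37). That of miR-31-5p was below 0 under 12 of the 13 and ran from −0.31 to −0.00077 with an array left out. Among the 13, using only probes detected on all arrays, using all probes of each miRNA or lowering the floor could not change these differences. They stayed at −0.72 and −0.19 there, since every miR-31 probe was detected on all arrays and lay above the floor. The sign of the miR-31-3p difference is also that of the contrast it was chosen on. The change of 3p minus 5p ran from −0.75 to −0.37 with an array left out. Scaling by the hybridisation spike-ins moved the median of all miRNAs to 0.60 and gave −0.095 for miR-31-3p and 0.44 for miR-31-5p, or −0.70 and −0.16 relative to that median. These spike-ins spanned a 3.48-fold range over the arrays, against 1.17-fold for the labelling spike-ins. With normexp, which adds 50 to every signal and so narrows dim ones, miR-31-3p was at −0.42 and the change of 3p minus 5p at −0.26. The SD within groups, 0.49 for miR-31-3p and 0.24 for miR-31-5p, was 0.76 and 0.52 without scaling, 1.06 and 0.81 with the hybridisation spike-ins, 0.25 for miR-31-3p with normexp, and for miR-31-5p 0.49 with the labelling spike-ins, 0.49 with the spike-in dmr_285 alone (chosen after seeing the data) and 0.096 in the authors' deposited table. The correlation of the arms stayed between 0.87 and 0.97 under the 13 alternatives, which include those that left both arms' values unchanged. Between 0 and 2 miRNAs passed the threshold with an array left out, 2 of them without GLE replicate 2. With the replicate number as a block, which is also the slide column, the differences were −0.72 and −0.19, the change of 3p minus 5p −0.54, and 0 miRNAs passed. A slide block could not be fitted, since there was 1 slide. The dimmest miR-31 probe of any array was 3.12 times as bright as the dimmest detected probe there.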

Other observations

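One of the arrays' labelling spike-ins, dmr_31a, carries a miR-31 name. The files give no sequence for its probes, and whether the spike-in RNA binds the miR-31-5p probes was not tested. Its signal was 991, 1131 and 1093 intensity units in GLE tumours 1, 2 and 3, against 1022, 1003 and 958 in model tumours 1, 2 and 3. It thus spanned a 1.18-fold range over the arrays, while the unscaled signal of the miR-31-5p probe A_54_P1322 spanned 2.36-fold and that of the miR-31-3p probe A_54_P3475 spanned 3.99-fold. These ranges do not test such binding, and any effect of it on the change of 3p minus 5p was not tested either. In the authors' deposited table, miR-31-3p stands at 5.60, 6.29 and 4.85 in GLE tumours 1, 2 and 3, against 6.50, 6.36 and 6.50 in model tumours 1, 2 and 3. miR-31-5p stands there at 8.84, 8.91 and 8.66 in GLE tumours 1, 2 and 3, against 9.01, 8.95 and 9.04 in model tumours 1, 2 and 3. For both arms all 3 GLE values lie below the model values there, whereas the levels used above overlapped. How many other miRNAs separate the groups in that table was not counted, so the separation is not read as particular to miR-31.

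The mm9 positions in the files place the miR-31-3p probes at higher coordinates than the miR-31-5p probes, both on the minus strand. RefSeq on GRCm38.p6 has the hairpin on the minus strand with miR-31-3p at chr4:88910577-88910599 and miR-31-5p at chr4:88910614-88910635, the opposite order. The probe sequences match the mature arms in full, so the naming of the probes does not rest on these positions.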
